A study of Rattus norvegicus and Mus musculus with 24 samples.

Results

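INTS2 and 9 further subunits of the Integrator complex, INTS1 and INTS3 to INTS10, were followed through kidney RNA of Ctns knockout (KO) and wild-type (WT) mice and rats. The 10 genes were taken by name from the gene tables of both species. All 10 were among the 17376 symbols of the mouse table, and 7 were among the 14931 symbols of the rat table, while INTS1, INTS8 and INTS10 were not analysed here in rats. INTS2 was chosen by its measured KO minus WT difference in these mice, so that difference is given as a description without a test. The other subunits were taken for their names, and the question was how they stood in the same animals.

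The study sequenced messenger RNA of 4 KO and 4 WT mice on the C57BL/6 background, and of 8 KO and 8 WT Sprague-Dawley rats, with littermates as controls and 1 library per animal. Ctns encodes cystinosin, the lysosomal cystine exporter that is lost in cystinosis. Genotype is the one condition in the labels, which give neither age nor sex nor any treatment for these animals. The paper's reporting summary states that its mouse experiments used females only. Its methods say this of primary cell cultures and mechanistic studies. Neither ties an age to the sequenced animals or a sex to the sequenced rats. The methods name kidney cortex as the source, whereas the labels name cortex together with dissected proximal tubules. The rats carry the numbers 17 to 24 and 25 to 32, with 4 KO and 4 WT animals in each range. What sets these ranges apart is not given in the sources used here, and they are called rats 17-24 and rats 25-32.

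Integrator is a large complex that travels with RNA polymerase II. It cuts the nascent transcripts of small nuclear RNA genes at their 3′ ends, and it also ends transcription early at many protein-coding genes where the polymerase has paused near the promoter. INTS11 is the endonuclease and works together with INTS9 and INTS4. INTS1, INTS2 and INTS7 belong to the scaffold of the complex, INTS5, INTS6 and INTS8 to the part that holds the phosphatase PP2A, and INTS10 to a separate arm of the complex. INTS3 and INTS6 are in addition partners of the single-stranded DNA sensing SOSS complex.

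Between 19309449 and 44449859 reads per mouse and between 24684097 and 40629873 per rat fell on genes. Mouse levels are the deposited scaled values, in which the 75th percentile of each library is 1, and mouse differences are on the log2(value + 0.1) scale, which understates changes of low genes. Rat levels are CPM, reads relative to the library size after TMM scaling, and rat differences are log2 fold changes. Scaling to the read total would raise the median KO minus WT difference of all symbols by 0.08 in mice, 0.09 in all rats, 0.02 in rats 17-24 and 0.16 in rats 25-32 on the log2 scale. Proximal tubule markers were abundant in every library, with a summed scaled value of 304 to 428 in mice. Distal nephron markers were present too, at 164 to 218 in the same mice.

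CTNS was examined first as a check of the knockout. In mice its scaled value was 0.342, 0.338, 0.319 and 0.331 in the KO animals and 0.824, 1.03, 0.878 and 0.944 in the WT animals. The mouse groups did not overlap, and the KO mean was 63.8% lower (log2 difference -1.23, adjusted p = 2.49e-07, limma). In rats CTNS averaged 19.1 ± 1.86 CPM in KO and 22.3 ± 2.98 CPM in WT animals (SD, n = 8 each), with overlapping groups and a log2 fold change of -0.22 (edgeR, adjusted p = 0.0511). By range CTNS was called lower in rats 25-32 (log2 fold change -0.32, adjusted p = 0.0391), a call lost without KO 28, KO 30, KO 32, WT 25, WT 27 or WT 29, and had -0.11 in rats 17-24 (adjusted p = 0.514). Reads on the gene therefore separated the genotypes in every mouse but not in every rat. Leaving out any 1 of 5 rats (KO 24, KO 26, WT 17, WT 19 or WT 21) brought the difference over all rats past the threshold, with adjusted p between 0.0312 and 0.0453. With all rats kept, it also passed with DESeq2 (adjusted p = 0.0416) and with an edgeR fit that took the number range into account (adjusted p = 0.0251).

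INTS2 was lower in every KO mouse. Its scaled value was 1.07, 0.971, 1.03 and 1.14 in the 4 KO mice, from 1026, 1266, 1636 and 1908 reads. In the 4 WT mice it was 2.02, 2.40, 2.12 and 2.58, from 3182, 2189, 3089 and 5365 reads. The highest KO mouse lay under the lowest WT mouse. INTS2 was chosen by this difference, so the gap between the groups is a description and no support for it. The means were 1.05 ± 0.0695 in KO and 2.28 ± 0.255 in WT mice (SD, n = 4 each), 53.8% lower in KO. The log2 difference, by which INTS2 was chosen, was -1.04 and ranked 6 from the lowest among 13132 symbols, with CTNS at rank 3. On recovered reads the log2 fold change was -1.13 with edgeR, and with 1 added to each value in place of 0.1 the difference was -0.67.

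**Figure D1:**
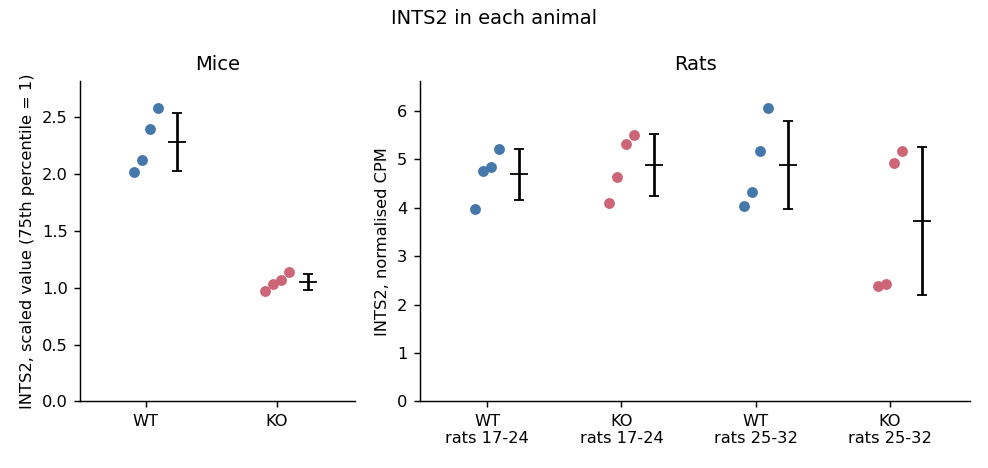
INTS2 in each animal, as the scaled value in 4 WT and 4 KO mice (left) and as normalised CPM in rats of either number range, 4 per group (right). Points are animals, and the bar beside them is the mean with its SD. KO mice sit between 0.971 and 1.14 and WT mice between 2.02 and 2.58, whereas the rat groups overlap in both ranges and 2 KO rats of the range 25-32 sit near 2.4 CPM.

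Of the other 9 subunits, 0 passed the threshold of an adjusted p of 0.05 in mice, where 8.80% of the 13132 symbols did, 6.52% as higher and 2.28% as lower (limma). A count of 0 of 9 is near that background and is no result about these subunits. Their log2 differences ran from -0.05 for INTS10 to 0.23 for INTS7, with adjusted p between 0.101 and 0.933. At an unadjusted p under 0.05, 1 of the 9 passed, INTS7, and edgeR and DESeq2 on recovered reads gave the same counts of 0 and 1. The WT and KO groups of all 9 overlapped, where 14.2% of all symbols had groups apart. The KO group of INTS2 lay wholly lower, as for 4.96% of symbols, which is a description because this difference chose it. No 95% interval of the 9 reached lower than -0.17. The median over all 10 was 0.05, beside 0.01 for all symbols.

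Among the scaffold subunits, INTS7 lay on the opposite side of 0 from INTS2. Its scaled value was 0.656, 0.644, 0.687 and 0.559 in KO mice and 0.538, 0.608, 0.518 and 0.460 in WT mice. The groups overlapped through KO mouse 8 and WT mouse 2. The log2 difference was 0.23 (SE 0.08, adjusted p = 0.101, limma), and without WT mouse 2 it was 0.28 with an adjusted p of 0.0306. INTS1, the largest scaffold subunit, was at 1.15 ± 0.0605 in KO and 1.12 ± 0.129 in WT mice (SD, n = 4 each), a log2 difference of 0.05 (adjusted p = 0.783). The KO and WT ranges of INTS1 were intermingled, from 1.09 to 1.22 and from 0.959 to 1.27.

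The subunits of the cleavage part were nearly level. INTS4 averaged 0.861 ± 0.0195 in KO and 0.870 ± 0.0517 in WT mice, and INTS9 averaged 0.388 ± 0.0220 and 0.381 ± 0.0458 (SD, n = 4 each). Their log2 differences were -0.01 and 0.02, with adjusted p of 0.933 and 0.893. Among the subunits beside PP2A, INTS5 differed by 0.09, INTS6 by 0.17 and INTS8 by 0.16 on the log2 scale, each with a higher KO mean and overlapping groups (adjusted p = 0.484, 0.350 and 0.256). INTS3, the SOSS partner, differed by 0.05 and INTS10 by -0.05 (adjusted p = 0.764 and 0.711). Summed over the 9 subunits other than INTS2, the scaled value was 5.79 ± 0.160 in WT and 6.10 ± 0.153 in KO mice.

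**Figure D2:**
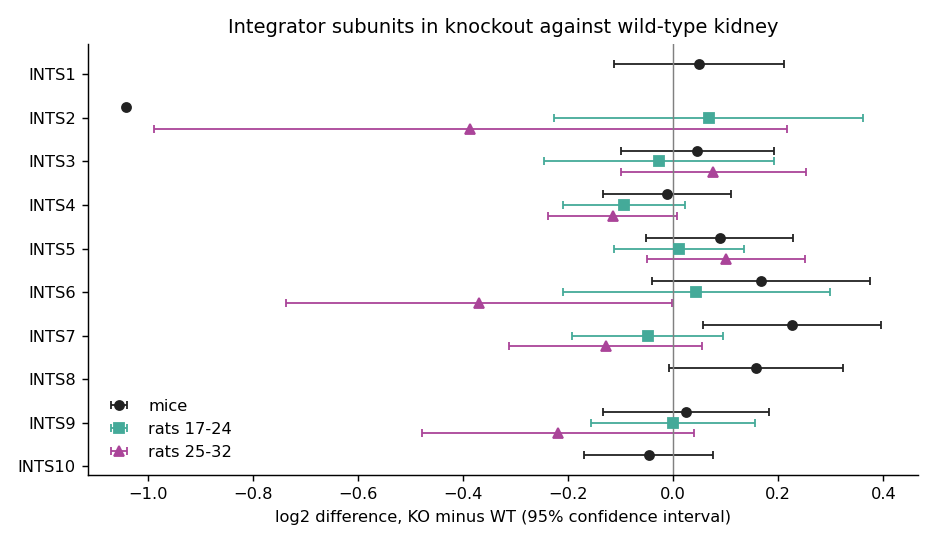
KO minus WT difference on the log2 scale of each Integrator subunit in mice (circles, 4 against 4), rats 17-24 (squares, 4 against 4) and rats 25-32 (triangles, 4 against 4), with 95% confidence intervals. INTS2 in mice, drawn without an interval, lies at -1.04, while the other 9 mouse subunits lie between -0.05 and 0.23. INTS1, INTS8 and INTS10 have no rat values here.

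The levels of the subunits were also set beside each other per length. Per kilobase of exon in the mouse annotation, INTS2 had the highest mean scaled value of the 10 in WT mice, 0.215 ± 0.0241, next to INTS3 at 0.190 ± 0.0113 (SD, n = 4 each). These neighbours were not apart, since the lowest WT value of INTS2 was 0.191 and the highest of INTS3 was 0.201. In KO mice INTS2 ranked 5 of 10 at 0.0992 ± 0.00655, under INTS3, INTS5, INTS1 and INTS4. INTS6 was the lowest per kilobase in both genotypes, at 0.0220 in WT and 0.0256 in KO mice. The length was the union of all annotated exons of a gene, from 3.27 kb for INTS5 to 16.8 kb for INTS6. Which of these exons kidney transcripts hold was not analysed here, and the ranking depends on it. Of the reads on the 7 subunits measured in both species, INTS2 held 38.5% ± 3.02 in WT and 21.4% ± 1.57 in KO mice (SD, n = 4 each). The lower rank and share of INTS2 in KO mice restate the difference by which it was chosen. They are a description and no support for it.

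**Figure D3:**
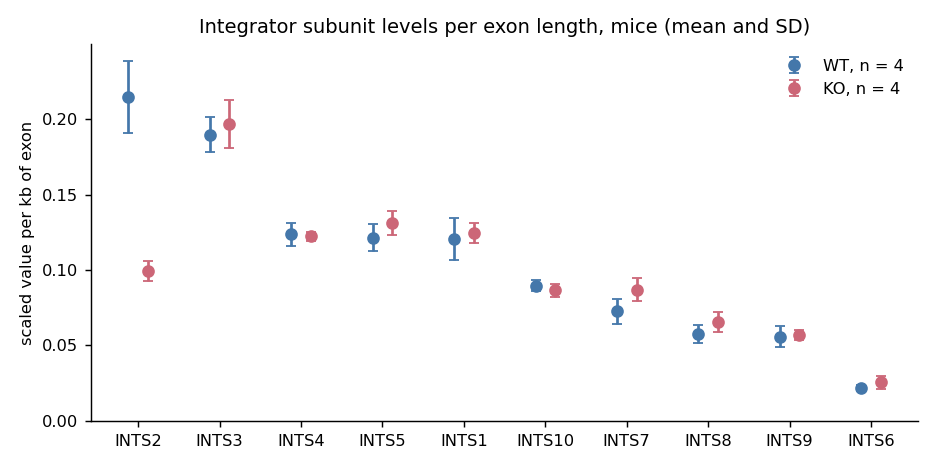
Mean scaled value per kilobase of exon of the 10 subunits in 4 WT and 4 KO mice, with SD, in the order of the WT means. INTS2 is first in WT mice (0.215) and ranks 5 in KO mice (0.0992), and the WT and KO means of the other 9 lie close together. The change in INTS2 restates the difference by which it was chosen and is a description.

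In rats INTS2 did not pass the test. Over 8 rats per genotype, it ran from 2.39 to 5.50 CPM in KO (median 4.77) and from 3.97 to 6.05 CPM in WT animals (median 4.79). The groups overlapped almost wholly, apart from KO rats 32 and 28, which were under all the others at 2.39 and 2.42 CPM. The log2 fold change was -0.15 (SE 0.17, 95% confidence interval -0.51 to 0.21, adjusted p = 0.537, edgeR). Leaving out 1 rat moved it over -0.21 to -0.05, with -0.05 without KO rat 32, -0.07 without KO rat 28 and -0.10 without WT rat 27. INTS2 rested on only 59 to 234 reads per rat, against 1026 to 5365 per mouse. It held 2.74% ± 0.384 of the reads on the 7 subunits in WT and 2.53% ± 0.698 in KO rats (SD, n = 8 each). That share depends on which exons the rat annotation used for counting holds, and those were not analysed here.

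The ranges were then taken apart. In rats 17-24 INTS2 was at 4.63, 4.10, 5.32 and 5.50 CPM in KO and at 4.75, 4.84, 3.97 and 5.21 CPM in WT animals. Both genotypes covered the same span, with a log2 fold change of 0.07 (95% confidence interval -0.23 to 0.36, adjusted p = 0.846, edgeR). In rats 25-32 it was at 5.16, 2.42, 4.91 and 2.39 CPM in KO and at 4.31, 6.05, 5.16 and 4.04 CPM in WT animals. Here 2 KO rats fell under the WT range and 2 lay inside it, and the log2 fold change was -0.39 (95% confidence interval -0.99 to 0.22, adjusted p = 0.271). Without KO rat 28 or KO rat 32 it was -0.22 or -0.23, and without KO rat 26 it was -0.59. The genotype difference of INTS2 in rats 25-32 less that in rats 17-24 was -0.45 (adjusted p = 0.334, edgeR interaction).

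None of the 7 subunits passed the test over all rats (0 of 7), where 27.5% of 11584 symbols did (15.2% higher and 12.3% lower, edgeR). The same count was 0 of 7 in rats 17-24 beside a background of 7.26%, 0 of 7 in rats 25-32 beside 43.8%, and 0 of 7 for the difference between the ranges beside 14.7%. At an unadjusted p under 0.05 the counts were 0, 0, 1 (INTS6 in rats 25-32) and 0. DESeq2 called 0 of 7 over all rats and in either range, with 1, 0 and 1 at an unadjusted p under 0.05. Over all rats the other 6 had log2 fold changes of -0.14 to 0.05 with adjusted p between 0.131 and 0.864. The median over the 7 was -0.11, beside -0.02 for all symbols.

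INTS6, which links the complex to PP2A, had the largest difference after INTS2 in rats 25-32. In rats 25-32 it was at 4.60, 3.75, 5.16 and 3.12 CPM in KO and at 5.50, 5.69, 5.61 and 4.78 CPM in WT animals. The lowest 2 were again KO rats 28 and 32, and the groups overlapped through KO rat 30. The log2 fold change was -0.37 (SE 0.17, adjusted p = 0.0947, edgeR), and without KO rat 30 it was -0.49 with an adjusted p of 0.0348. In rats 17-24 the INTS6 log2 fold change was 0.04 (adjusted p = 0.887). INTS6 rested on 77 to 226 reads per rat.

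INTS4, of the cleavage part, varied little between animals. In rats 25-32 it was at 40.3, 40.1, 40.4 and 40.2 CPM in KO and at 43.9, 43.8, 41.8 and 45.0 CPM in WT animals. All KO rats were under all WT rats of that range, as held for 19.9% of symbols (40.3% had groups apart in either direction), and the log2 fold change was -0.11 (SE 0.06, adjusted p = 0.117, edgeR). Over all rats it was -0.11 too (adjusted p = 0.131), and a fit that took the number range into account brought it past the threshold (adjusted p = 0.0184). INTS9, its partner, had a log2 fold change of -0.22 in rats 25-32 (adjusted p = 0.151) and of 0.00 in rats 17-24 (adjusted p = 0.999). Without KO rat 26 the former was -0.32 (adjusted p = 0.0476). INTS3, INTS5 and INTS7 had overlapping groups in each range.

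Between the ranges, with genotype in the fit, 3 of the 7 passed the test, where 41.0% of 11839 symbols did (22.3% higher and 18.7% lower). INTS4 and INTS6 were lower in rats 25-32, by log2 values of -0.16 and -0.36, and INTS5 was higher by 0.19 (edgeR, adjusted p = 0.00154, 0.0150 and 0.00238). INTS2 differed by -0.16 (adjusted p = 0.460). The number range and whatever goes with it cannot be told apart.

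The genotype difference was compared between species on 1 scale, with rat reads scaled as the mouse values are and 0.1 added before the log2. This understates differences of genes near 0.1. Rat INTS2 lay at 0.0524 to 0.125 on this scale and rat INTS6 at 0.0683 to 0.142. For INTS2 the rat minus mouse difference was 0.97 on the log2 scale, a description without a test or interval because it contains the mouse value that chose INTS2. For the other 6 it ran from -0.27 for INTS7 to 0.01 for INTS3, and 0 of 6 passed the test (limma, adjusted p between 0.1004 and 0.969), where 2.07% of 10498 symbols did. At an unadjusted p under 0.05 the count was 1 of 6, and edgeR on reads gave the same counts of 0 and 1. For CTNS it was 1.08 (adjusted p = 5.99e-07). Without WT mouse 2 the INTS7 difference was -0.33 with an adjusted p of 0.0404.

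The rest of the complex was described through 6 further subunits: INTS11, INTS12, INTS13, INTS14, INTS15 (listed as C7orf26) and INTS6L. In mice 0 of these 6 passed the test, where 8.80% of symbols did, with log2 differences from 0.02 to 0.18 and a median of 0.09. In rats 4 of the 6 were measured, and 2 of the 4 were called lower over all animals, INTS11 and INTS12, where 12.3% of symbols were (median of the 4 -0.10). INTS13 and INTS14 had log2 fold changes of -0.04 and -0.06 (adjusted p = 0.623 and 0.423, edgeR).

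INTS11, the endonuclease, ran from 19.9 to 22.99 CPM in KO rats (median 21.4) and from 23.7 to 26.8 CPM in WT rats (median 24.9). Every one of the 8 KO rats was under every one of the 8 WT rats, as held for 1.95% of symbols. The KO mean was 14.5% lower, with a log2 fold change of -0.23 (SE 0.05, 95% confidence interval -0.33 to -0.12, adjusted p = 0.00284, edgeR). The call held when each rat was left out in turn, with adjusted p up to 0.00951. By range the log2 fold change was -0.26 in rats 17-24 (adjusted p = 0.0342) and -0.19 in rats 25-32 (adjusted p = 0.0491). With 4 rats per group these calls were fragile: that of rats 17-24 was lost without KO 18, KO 20, KO 22, WT 19 or WT 21 (smallest difference then -0.22), and that of rats 25-32 without any 1 of its 8 rats (log2 fold changes -0.20 to -0.15) and with DESeq2's size factors (adjusted p = 0.0550).

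**Figure D4:**
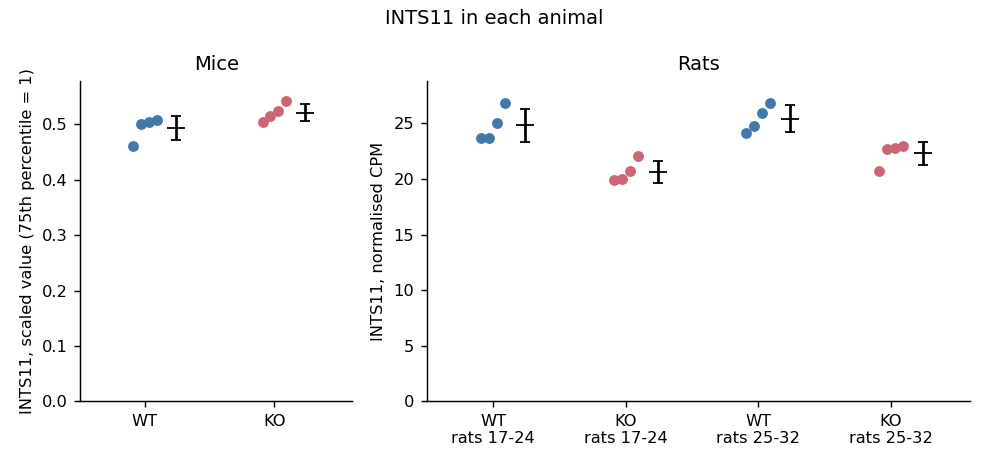
INTS11 in each animal, as the scaled value in 4 WT and 4 KO mice (left) and as normalised CPM in rats of either number range, 4 per group (right). Points are animals, and the bar beside them is the mean with its SD. KO rats lie between 19.9 and 22.99 CPM and WT rats between 23.7 and 26.8 CPM, while the mouse groups overlap.

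In mice INTS11 was at 0.542, 0.515, 0.523 and 0.505 in KO and at 0.508, 0.461, 0.5004 and 0.504 in WT animals. These groups overlapped, and the log2 difference was 0.07 (adjusted p = 0.549, limma). The rat minus mouse difference of INTS11 was -0.23 (95% confidence interval -0.36 to -0.09, adjusted p = 0.0713), which missed the threshold. INTS12, a small subunit with a PHD finger, averaged 18.4 ± 0.977 CPM in KO and 20.2 ± 0.818 CPM in WT rats (SD, n = 8 each), with overlapping groups. Its log2 fold change was -0.14 (adjusted p = 0.0400, edgeR), and the call was lost when any 1 of 9 rats was left out (KO 18, 20, 30 or 32, or WT 23, 25, 27, 29 or 31, adjusted p up to 0.136).

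The genes that Integrator works with were taken as 6 more lists, which with the 6 subunits above made 53 genes. In mice 0 of the 53 passed the test, where 8.80% of symbols did (limma), as with edgeR and DESeq2 on recovered reads, and 5 had an unadjusted p under 0.05 with each of these tools. In rats 47 were measured, and 9 of them, or 19.1%, were called over all animals, 3 higher and 6 lower, beside 27.5% of all symbols. The share was 6.38% in rats 17-24 (0 higher and 3 lower, beside 7.26%, of which 5.07% higher and 2.19% lower) and 31.9% in rats 25-32 (5 higher and 10 lower, beside 43.8%, of which 21.8% higher and 22.1% lower). With both directions pooled, none of these shares was above the background of its comparison. By direction in rats 17-24, the 3 lower calls of 47 were above the 2.19% of all symbols. The 0 higher calls there were under the 5.07%. Over all rats, the 3 higher and 6 lower calls of 47 stood beside 15.2% and 12.3% of symbols.

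Of P-TEFb, the kinase that releases paused polymerase, and its inhibitors, 1 of 4 measured genes was called over all rats, beside 27.5% of symbols. The median log2 fold change of the 4 was 0.02, beside -0.02 for all symbols. The called gene was HEXIM1, which holds P-TEFb inactive. It ran from 101 to 118 CPM in KO rats (median 109) and from 128 to 146 CPM in WT rats (median 140). The groups did not overlap in either range or over all rats, the latter as held for 1.95% of symbols with KO lower. The log2 fold change was -0.34 (SE 0.04, adjusted p = 2.94e-05, edgeR). LARP7, which keeps the RNA scaffold of that inactive form, had a log2 fold change of 0.20 over all rats (adjusted p = 0.0507, edgeR). It passed with DESeq2 (adjusted p = 0.0416) and with an edgeR fit that took the number range into account (adjusted p = 0.0113). LARP7 was higher in rats 25-32 (log2 fold change 0.32, adjusted p = 0.00426) and differed by 0.07 in rats 17-24 (adjusted p = 0.619). The difference between the ranges missed the threshold (adjusted p = 0.0700) except without KO rat 30. Among the pausing factors 0 of 5 passed over all rats, beside 27.5% of symbols (median 0.05). In rats 25-32 1 of the 5 was called, beside 43.8% of symbols. That was NELFB, higher by 0.17 (adjusted p = 0.0405, edgeR). The call was lost without KO 28, KO 32, WT 25, WT 27 or WT 29 and with no filter on low counts (adjusted p = 0.0635).

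Of the 14 genes of small nuclear RNA transcription, 2 were called higher and 1 lower over all rats (median -0.03), beside 15.2% and 12.3% of all symbols. SNAPC5 was lower and SNAPC2 and SNAPC3 were higher, though all 3 encode subunits of SNAPc, the factor that binds small nuclear RNA promoters. Over all rats SNAPC5 ran from 27.1 to 33.0 CPM in KO (median 31.9) and from 33.4 to 44.8 CPM in WT animals (median 38.4). The SNAPC5 groups did not overlap, as held for 1.95% of symbols with KO lower. Its log2 fold change was -0.32 (adjusted p = 0.00270, edgeR), while SNAPC2 and SNAPC3 had 0.41 and 0.22 (adjusted p = 0.00473 and 0.0129) with overlapping groups. In rats 25-32 these were -0.53, 0.66 and 0.32, and POU2F1, the octamer-binding activator, was at -0.70 (adjusted p = 0.0338) on 0.749 to 2.27 CPM, a call lost without KO 26, KO 28, KO 32, WT 25 or WT 27. The genotype difference itself differed between the ranges for 4 of the 14, 1 higher and 3 lower in rats 25-32, where 14.7% of symbols did. These were SNAPC5 (-0.43, adjusted p = 0.00571), SNAPC2 (0.52, adjusted p = 0.0171), ICE2 (-0.38, adjusted p = 0.0328) and ELL2 (-0.33, adjusted p = 0.0485). The last of these was lost when any 1 of 12 rats was left out and under both other settings tried, and ICE2 when any 1 of 9 was, with adjusted p up to 0.104 and 0.0733.

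PP2A was represented by 4 core subunits, and 1 of them was called over all rats, beside 27.5% of symbols (median 0.03). PPP2R1B, a scaffold subunit of the phosphatase, averaged 131 ± 15.6 CPM in KO and 158 ± 19.1 CPM in WT rats (SD, n = 8 each), with a log2 fold change of -0.27 (adjusted p = 0.0227, edgeR). The groups overlapped, and the call was lost without WT 25, WT 29 or WT 31 (adjusted p up to 0.0613). In rats 25-32 the groups were apart, as for 40.3% of symbols (19.9% with KO lower), with a log2 fold change of -0.39 (adjusted p = 0.000946). Of the 4 SOSS genes and partners, 0 passed over all rats, beside 27.5% of symbols (median -0.01). In rats 25-32 1 of them was called lower, where 22.1% of symbols were. That was NABP1, a single-stranded DNA binding subunit, at -0.20 (adjusted p = 0.0495), a call lost without KO 26, KO 28, KO 32, WT 27 or WT 31 and with DESeq2's size factors.

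Of 12 measured genes for the 3′ ends of polyadenylated and histone mRNAs, 1 was called higher and 1 lower over all rats (median -0.03). Of all symbols, 15.2% were called higher and 12.3% lower. CPSF4, a poly(A) factor subunit, had a log2 fold change of -0.28 (adjusted p = 0.00173) and SLBP, the histone stem-loop binding protein, of 0.29 (adjusted p = 0.00902, edgeR). In rats 25-32 the groups of both genes were apart, at -0.39 and 0.37, as held for 40.3% of symbols in that range. CPSF1, the largest subunit of the same poly(A) factor, was lower in rats 17-24 by -0.20 (adjusted p = 0.0319), a call lost without KO 20, KO 22, KO 24, WT 19 or WT 21. Over all rats CPSF1 missed the threshold in the main edgeR fit. It passed as lower with DESeq2 (-0.16, adjusted p = 0.0385) and with an edgeR fit that took the number range into account (-0.16, adjusted p = 0.00520).

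INTS2 and CTNS lie on the same chromosome in both species, so the neighbourhood of INTS2 was examined. In the mouse (mm10, GENCODE annotation) INTS2 spans chr11:86210681-86257575 on the minus strand and CTNS chr11:73183596-73199042, also on the minus strand, 13.0 Mb apart. In the rat both are on chromosome 10. Of 139 tested protein-coding symbols between them in mice, 6 were higher and 3 lower, which is 6.47% beside 8.80% of all symbols, and 2.16% beside 2.28% for lower calls. The annotated gene body of INTS2 overlaps an antisense transcript, Brip1os. The library kit keeps strand, but whether the counting used it is not given in the sources used here, so reads from both could not be told apart. Such overlaps are not particular to INTS2. INTS5 overlaps the protein-coding Gm49416 on its own strand, and INTS8 overlaps the protein-coding Ccne2 on the other strand.

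Of the 5 measured genes nearest on each side of INTS2, 9 were tested in mice and 0 were called, beside 8.80% of symbols, with log2 differences from -0.25 for TBX2 to 0.18 for PPM1D. The closest on one side was BRIP1, a DNA repair helicase 9.49 kb away, at -0.07 (adjusted p = 0.614, limma). BRIP1 lay at scaled values of 0.0479 to 0.0820, under the 0.1 added before the log2, which understates its difference. Its KO mean was 10.6% lower, and over all settings its difference ran from -0.19 to -0.01 without a call. The closest on the other side was MED13, a Mediator kinase-module subunit 9.46 kb away, at 0.07 (adjusted p = 0.591, limma). In rats 7 were tested over all animals and 1 was called higher and 1 lower, beside 15.2% and 12.3% of symbols. VMP1, an autophagy membrane protein, was higher by 0.35 (adjusted p = 0.00907), while TBX2, a transcription factor, was lower by -0.28 (adjusted p = 0.0351, lost when any 1 of 9 rats was left out). In rats 25-32 MED13 was at 25.1 to 40.0 CPM in KO and 41.4 to 74.4 CPM in WT animals. These groups did not overlap, as held for 40.3% of symbols in that range, 19.9% with KO lower. The lowest MED13 values were those of KO rats 32 and 28, as for INTS2. The MED13 log2 fold change was -0.74 in rats 25-32 (adjusted p = 0.0129, edgeR) and -0.03 in rats 17-24 (adjusted p = 0.917). The difference between the ranges missed the threshold (-0.70, adjusted p = 0.0660) except without KO 30, WT 23 or WT 31. In rats 25-32 4 of 6 neighbours were called, 1 higher and 3 lower, beside 43.8% of symbols (21.8% higher and 22.1% lower). The lower ones were MED13, TBX2 and RNFT1. In that range the TBX2 call was lost without KO 32, WT 25 or WT 29. The RNFT1 call was lost without KO 28, KO 32, WT 25 or WT 27.

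**Figure D5:**
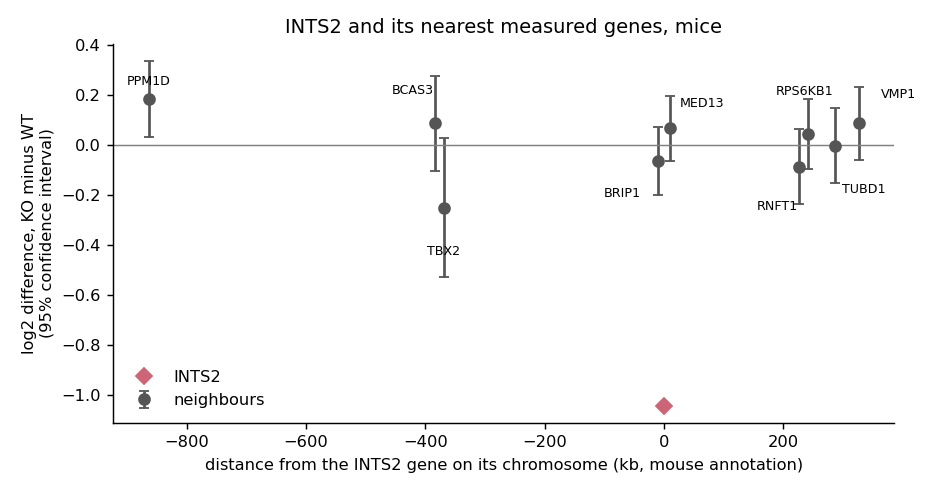
KO minus WT difference on the log2 scale of INTS2 (diamond, no interval) and of the 9 tested neighbours (circles, with 95% confidence intervals) in 4 KO against 4 WT mice, by distance from INTS2 in kilobases. INTS2 lies at -1.04, BRIP1 and MED13 on either side of it at -0.07 and 0.07, and the neighbour with the lowest value is TBX2 at -0.25. BRIP1 has scaled values under the 0.1 added before the log2, which understates its difference.

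The genes whose levels followed INTS2 most closely were found by Pearson's r of log2 values, as a description. Over the 8 mice, and among 7654 symbols with at least 0.25 of its mean level, CTNS came first (r = 0.988), followed by ISOC1 (0.981), the kinase AKT2 (0.980), MAPKAP1, a subunit of mTORC2 (0.976), and PCCB, a propionyl-CoA carboxylase subunit (0.971). These 8 points are 2 genotype groups, and all 5 genes had lower KO means. The other Integrator subunits in that set ran from -0.76 for INTS7 to 0.49 for INTS10. Over the 16 rats and 10722 symbols, the highest were OSBPL11 (0.927), TTL (0.926), PHF20 (0.924), BACH1 (0.917) and SMAD3 (0.914). Among the subunits in rats INTS6 was closest to INTS2 (0.782, rank 706 of 10722), while CTNS was at 0.575 (rank 2106). KO rats 32 and 28 had the lowest levels of both INTS2 and INTS6 among the 16 rats. How far these animals carried the r values in rats was not tested.

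Summed RNA levels of several lists of cell type markers also differed between genotypes. The summed levels of 4 macrophage, 4 fibroblast and 4 dividing-cell markers were 2.36 to 2.67, 4.06 to 4.46 and 0.916 to 1.82 in KO mice, and 1.57 to 1.86, 2.11 to 2.703 and 0.192 to 0.340 in WT mice. In rats, fibroblast markers summed to 210 to 404 CPM in KO and 163 to 179 CPM in WT animals, and 3 measured dividing-cell markers to 27.7 to 57.9 and 7.35 to 11.5 CPM. The 8 measured proximal tubule markers summed to 9433 to 11763 CPM in KO and 12758 to 19237 CPM in WT rats. The ranges of these sums did not overlap between genotypes. Thick limb and distal nephron markers summed to 4033 to 4872 CPM in KO and 2894 to 4426 CPM in WT rats, and to 194.8 to 218 in KO and 164 to 194.9 in WT mice. Endothelial markers summed to 6.72 to 7.134 in KO and 7.136 to 8.49 in WT mice, and to 227 to 338 and 288 to 363 CPM in rats. The endothelial sums in mice were apart by a narrow gap, whereas the endothelial sums in rats and the distal sums in both species overlapped. The proximal tubule sums in mice, 304 to 326 in KO and 308 to 428 in WT, overlapped as well, and so did the rat macrophage sums of 97.7 to 250 in KO and 66.0 to 114 CPM in WT animals. Podocyte markers summed to 14.1 to 16.3 in KO and 14.3 to 16.4 in WT mice, which overlapped. In rats they summed to 424 to 747 in KO and 515 to 827 CPM in WT animals, which overlapped too. Lymphocyte markers summed to at most 0.0773 in mice and 8.58 CPM in rats. Whether the mixture of cells had a part in the differences of INTS2, INTS11 and the other genes was not tested. In bulk tissue fewer cells of a type and less RNA per cell cannot be told apart.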

How the data were processed

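Kidney RNA of 8 mice and 16 rats was sequenced. The submitters' processing notes name bcl2fastq 2.20, STAR 2.7.3, DESeq2 1.24.0, R 3.6.1 and the builds mm10 and rn5. For mice the authors deposited a scaled signal per symbol, the reads plus 0.5 over the library's 75th percentile plus 0.5, as read from the values, and whole reads (within 0.01) were recovered for 99.0% of values. For rats the authors deposited estimated counts, rounded here (97.7% were whole after a constant was taken off). No other sample column was present.

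Everything below was computed here in R 4.3.3. Mouse symbols whose mean reached 0.01 were tested with limma 3.58.1 (trend, robust) on log2(value + 0.1), and rat symbols with edgeR 4.0.16 (quasi-likelihood, TMM, filterByExpr), without covariates unless stated. All p-values are two-sided and Benjamini-Hochberg adjusted over all symbols tested, with a threshold of 0.05. Library depth was 19309449 to 44449859 reads in mice and 24684097 to 40629873 in rats, and it sets counting error only. Each library is 1 animal. Scripts were tested on simulated data. The members and lists were chosen with earlier results of these data known. List genes were named where they passed the threshold with groups apart, at most 4 per list by size; INTS12, PPP2R1B, SNAPC2, SNAPC3, CPSF4, SLBP, NABP1, ICE2, ELL2, VMP1, TBX2 and MED13 were also named after their values were seen. Genes like INTS2 were the 5 with the highest r among symbols with at least 0.25 of its mean level. Mouse positions are from GENCODE release M21 (mm10). The rat annotation at hand was of another build than rn5, and only chromosomes were taken from it. Alternatives were another pseudocount, other filters, edgeR and DESeq2 1.42.0 on reads, other size factors, the number range as a covariate, and leaving out each animal.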

Additional observations from a re-analysis of the deposited data

Results flagged for a closer look

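INTS9 had 1 mouse standing apart in each genotype. KO mouse 8 was at a scaled value of 0.356, where the other KO mice were at 0.397 to 0.404, and WT mouse 2 was at 0.450, where the other WT mice were at 0.356 to 0.361. Among 70 groups of 4 to 8 animals checked for a sample far from the rest of its group these were the 2 found, and chance alone gives about 1 in 20 groups.

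The genotype difference of CTNS differed between species, with a rat minus mouse difference of 1.08 on the log2 scale (limma, adjusted p = 5.99e-07).

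The genotype difference of 4 genes of small nuclear RNA transcription differed between the rat ranges (25-32 less 17-24, edgeR interaction). It was 0.52 for SNAPC2, -0.43 for SNAPC5, -0.38 for ICE2 and -0.33 for ELL2 on the log2 scale (adjusted p = 0.0171, 0.00571, 0.0328 and 0.0485), of which the last 2 calls did not hold in every leave-out.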

How the results depend on the processing

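Leaving out each animal in turn gave 650 to 1371 called symbols in mice, 504 to 930 in rats 17-24, 1010 to 2392 for the range-by-genotype difference and 110 to 320 for the species difference. The libraries that moved these counts by over 1.5 times were KO mice 5 and 6, rats KO 20, KO 24 and WT 21, rats KO 22, KO 28 and WT 27, and KO mice 3, 5 and 6. A minimum mean value of 0.1 in mice left 727 called symbols against 1155, with fewer symbols tested. The other 20 settings that kept all animals stayed within 1.5 times of their main count. Signs turned only for values near 0, none of them called. Leaving out 1 animal moved INTS1 over -0.0158 to 0.109 and INTS4 over -0.0331 to 0.0188 in mice, and INTS3 over -0.00308 to 0.0615 in all rats. In rats 17-24 it moved INTS2 over -0.00765 to 0.141, INTS3 over -0.0961 to 0.0362, INTS5 over -0.00658 to 0.0302, INTS6 over -0.0185 to 0.0992 and INTS9 over -0.0319 to 0.0214. It moved the range-by-genotype difference of INTS4 over -0.0469 to 0.0116, and the species difference of INTS3 over -0.0410 to 0.0456 and of INTS5 over -0.0467 to 0.0199. With a pseudocount of 1 the species difference of INTS5 was 0.00183. Of 357 values of single genes recomputed with all animals, 343 kept direction and call. The cause of these moves was not tested.

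INTS2 in mice ranged from -1.14 to -0.67 over 5 other settings and from -1.09 to -0.98 over the 8 leave-outs, lower in KO in all. These ranges are a description, since the mouse difference chose INTS2. Low read numbers limit INTS2 and INTS6 in rats, and 4 animals per group limit each rat range. The controls were littermates, but no paired analysis was possible because the litter of each animal is not given in the sources used here.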
